A study of Mus musculus with 46 samples.

Results

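Transmembrane mucins were followed here through 4 mouse genes, Muc1, Muc4, Muc13 and Muc20, in the cecum of mice fed 1 of 4 diets. All array probes whose transcript accession belongs to one of these genes were taken, whatever their signal, which gave 6 of the 55681 probes that are not controls and 4 of the 20887 genes with a symbol. Muc4 and Muc20 had 2 probes each, Muc1 and Muc13 had 1, and the probe with the highest mean signal in cecum stands for its gene below. The mice were male C57BL/6, an inbred strain, 12 weeks old when the diets began and 20 weeks old after 8 weeks on them. The high fat diet (HFD) held 45% of its energy as fat and the low fat diet (LFD) 10%. HFD + inulin was the HFD with 10% of its weight given as inulin, a fermentable fructose polymer, in place of corn starch and cellulose. HFD + inul PB carried inulin propionate ester and inulin butyrate ester at 5% each in that place. The HFD and both fiber diets thus shared the fat content. Cecum was measured on one-color arrays of 1 sample each, with 6 arrays each of HFD and HFD + inulin and 5 each of LFD and HFD + inul PB, and liver on 6 arrays per diet. The labels do not tie cecum and liver arrays to the same mouse.

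Transmembrane mucins are large glycoproteins anchored in the apical membrane of epithelial cells, where their sugar-laden outer domains form the glycocalyx and their short tails can pass signals inward. They are distinct from the secreted, gel-forming mucins such as Muc2, which goblet cells release as the mucus layer. Muc13 is a main cell-surface mucin of the large intestine, Muc4 has domains like those of epidermal growth factor and is a known binding partner of the receptor ErbB2, Muc1 has a tail that takes part in receptor kinase and beta-catenin signaling, and Muc20 is known for its association with the receptor Met.

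In RefSeq's annotation of mouse assembly GRCm38.p6, Muc4, Muc20 and Muc13 lie on chromosome 16 and Muc1 on chromosome 3. Muc4 and Muc20 are direct neighbors on opposite strands with 0 protein-coding genes between them, and their annotated spans overlap at the ends. Another 12 protein-coding genes separate Muc20 from Muc13. The 250 bases before the annotated start are shown for Muc4, the member that changed most with diet, and for Muc13, the member with the smaller difference, both from the RefSeq promoter table. The Muc4 window is chr16:32735636-32735885 on the plus strand and the Muc13 window, before the first of its 2 listed starts, is chr16:33793787-33794036 on the plus strand. Capitals mark matches to the motifs named after the sequences.
Muc4: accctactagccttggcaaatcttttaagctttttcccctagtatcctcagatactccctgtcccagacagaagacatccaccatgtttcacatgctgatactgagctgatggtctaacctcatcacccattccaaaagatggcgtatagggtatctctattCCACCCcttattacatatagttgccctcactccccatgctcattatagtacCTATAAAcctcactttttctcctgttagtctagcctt
Muc13: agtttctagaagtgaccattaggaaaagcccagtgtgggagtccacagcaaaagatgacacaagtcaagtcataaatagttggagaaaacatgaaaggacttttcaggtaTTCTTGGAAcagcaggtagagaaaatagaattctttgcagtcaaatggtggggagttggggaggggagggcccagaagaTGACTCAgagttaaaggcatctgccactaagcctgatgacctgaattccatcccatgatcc
The motifs were searched on both strands of the 250 bases. In Muc4 a TATA box, TATAAA, began 36 bases before the start, overlapped by a caudal-type motif, TTTATNG, on the opposite strand. A CACCC box, CCACCC, began 88 bases before the start. In the Muc13 window an AP-1 site, TGACTCA, began 61 bases before the start and a STAT site, TTCNNNGAA, 140 bases before it. Among 32841 windows of this length, 12.4% held the TATA box, 9.81% the caudal-type motif, 28.1% the CACCC box, 4.46% the AP-1 site and 7.02% the STAT site. A TATA box also stood in the window of Muc1, 31 bases before its start, and CACCC boxes in that of Muc20. The CCAAT box, CCAAT, the GC box, GGGCGG, and an E-box, CACCTG, held by 33.9%, 32.7% and 17.2% of all windows, were matched in Muc1, the E-box also in Muc20, and none of them in Muc4 or Muc13. None of the 5 windows of the members matched the HNF1 core motif or the GATA motif, AGATAA, which 0.134% and 9.99% of all windows held. A match of letters is a description of the window only, and the arrays do not tell which start was used.

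Between 48.4% and 55.9% of spots were well above background on a cecum array, and Pearson's r between pairs of cecum arrays ranged from 0.951 to 0.989. The cecum arrays lay on 3 slides, of which slide 1 was scanned on another day than slides 2 and 3, and every slide held all 4 diets. HFD and HFD + inulin arrays occupied other columns of the slides than HFD + inul PB and LFD arrays, so column and diet cannot be told apart in comparisons across that divide. No probe of the members was saturated on any array.

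Of the members, Muc4 had the largest differences from HFD on both fiber diets. On a log2 scale of normalized signal, its brighter probe (A_55_P2025687) read 12.40 at the lowest, 13.40 at the median and 13.58 at the highest of the 6 HFD arrays. On HFD + inulin the lowest, median and highest of 6 were 13.12, 14.31 and 14.60. On HFD + inul PB the 5 arrays read 14.63, 14.58, 14.87, 14.88 and 14.90. All HFD + inul PB arrays thus stood above all HFD arrays and within a narrow band, whereas 1 HFD + inulin array, replicate 2, stayed among the HFD values. On LFD the 5 arrays read 13.54, 13.34, 13.20, 14.67 and 13.56, so that 4 lay within the HFD range and replicate 4 lay among the HFD + inul PB arrays. The mean ± SD was 13.25 ± 0.44 (n = 6) for HFD and 13.66 ± 0.58 (n = 5) for LFD. With inulin it was 14.13 ± 0.57 (n = 6), and with the esters 14.77 ± 0.15 (n = 5).

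**Figure D1:**
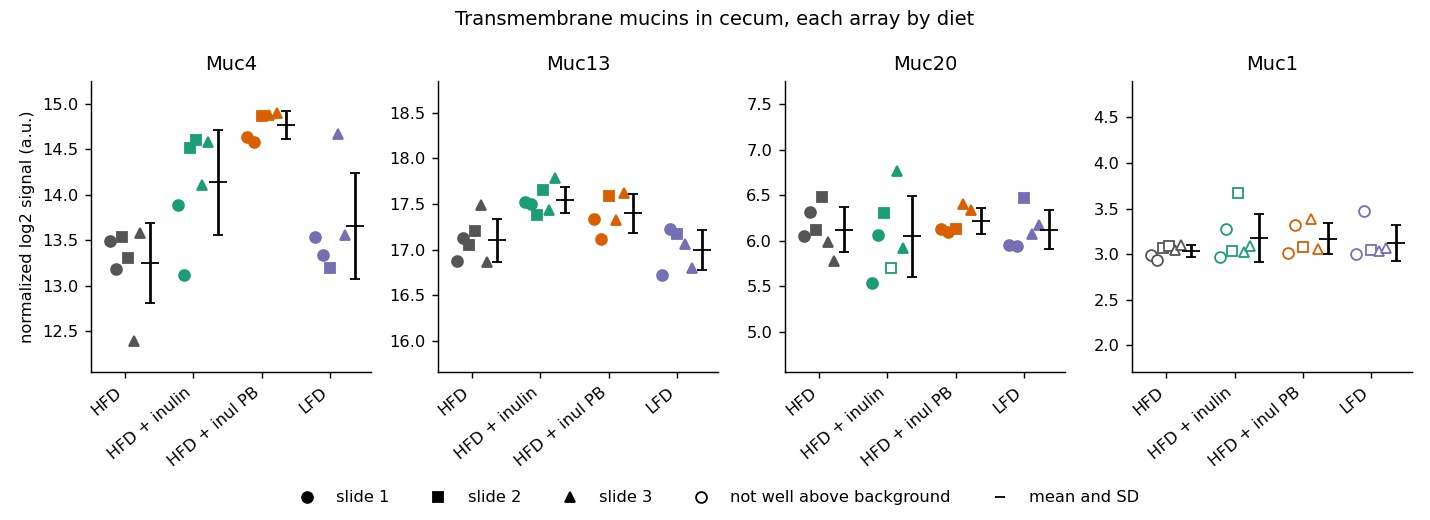
Normalized log2 signal of the brighter probe of each transmembrane mucin on each of the 22 cecum arrays, by diet, with marker shapes for the 3 slides, open markers for arrays on which the probe was not well above background, and the mean and SD of each diet at its right. All panels span the same height; the 5 HFD + inul PB arrays of Muc4 sit between 14.58 and 14.90, above all 6 HFD arrays, while Muc20 overlaps in all diets and Muc1 is open on every array.

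A change was called where the fold exceeded 1.5 with an unadjusted P under 0.01 in LIMMA, the rule the study used, and beside it are given the calls at 0.05 after Benjamini-Hochberg adjustment across the 55681 probes. In HFD + inul PB against HFD, Muc4 was 2.87-fold higher, a log2 difference of 1.52 (SE 0.28, 95% confidence interval 0.94 to 2.10, adjusted P = 0.00288), and it was the only 1 of the 4 members called. Of all probes, 2.54% were called higher by the fold rule in that comparison and 3.51% were called higher after adjustment. The groups did not overlap, and a two-sided exact permutation test of the means gave P = 0.00216, the smallest it can give with 5 against 6 arrays. In HFD + inulin against HFD, Muc4 was 1.84-fold higher (log2 difference 0.88, SE 0.27, 95% confidence interval 0.33 to 1.44, adjusted P = 0.10) and again the only member called by the fold rule, where 1.17% of all probes were called higher. No member passed adjustment, as 0.842% of all probes did in that direction, and the exact permutation test gave P = 0.0195. Leaving out HFD replicate 5 ended that call with a difference of 0.71 (adjusted P = 0.17), and leaving out HFD + inulin replicate 4 or replicate 6 ended it with 0.79 (adjusted P = 0.233 and 0.165). Muc4 is also on the study's own list of cecum genes shared by the fiber diets, which was chosen on these arrays, so its direction there is not independent evidence.

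LFD did not differ from HFD in Muc4 beyond the spread of the arrays (log2 difference 0.41, 95% confidence interval -0.17 to 0.99, adjusted P = 0.839), and 0 members were called where 0.639% of all probes were called in either direction. After adjustment 0 probes of the whole array passed in that comparison, and 5.24% had an unadjusted P under 0.05. The difference rested on replicate 5 of HFD and replicate 4 of LFD, since it was -0.01 with both left out. HFD + inul PB exceeded HFD + inulin in Muc4 by 0.64 (SE 0.28, 95% confidence interval 0.06 to 1.22, adjusted P = 0.748), short of the fold rule, which called 0.803% of all probes in either direction there. The mean of the fiber diets exceeded LFD by 0.79 (SE 0.25, adjusted P = 0.145), a call by the fold rule, as for 0.611% of all probes in that direction. That call did not hold without LFD replicate 1 (0.76), replicate 2 (0.71), replicate 3 (0.67) or replicate 5 (0.76), while without LFD replicate 4 the difference was 1.04. The order of the mean levels was HFD, LFD, HFD + inulin and HFD + inul PB, and neither HFD and LFD nor LFD and HFD + inulin differed beyond their spread (exact permutation P = 0.286 and P = 0.201).

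The second Muc4 probe (A_55_P2029603) gave a second reading of the same transcript on the same arrays. Its mean ± SD was 7.13 ± 0.51 for HFD, 7.78 ± 0.62 for LFD, 8.28 ± 0.74 with inulin and 8.83 ± 0.27 with the esters. It was called higher with inulin (log2 difference 1.15, SE 0.32, adjusted P = 0.0716) and with the esters (1.70, SE 0.33, adjusted P = 0.00453). Unlike the brighter probe, it gave no call when both fiber diets were averaged and set beside LFD (0.77, SE 0.3, adjusted P = 0.268). Relative to HFD it read 0.65 higher on LFD (SE 0.33, adjusted P = 0.839), without a call. HFD + inul PB stood 0.55 above HFD + inulin (SE 0.33, adjusted P = 0.842), also without a call. On both probes HFD replicate 5 was the lowest of all cecum arrays, HFD + inulin replicate 2 the lowest of its diet and LFD replicate 4 the highest of its diet. Over the 22 arrays the probes had a Pearson's r of 0.978, and 0.962 after each diet's mean was removed, a description of 2 probes that share arrays and sample. Array-to-array differences within a diet were thus read alike by both probes.

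**Figure D2:**
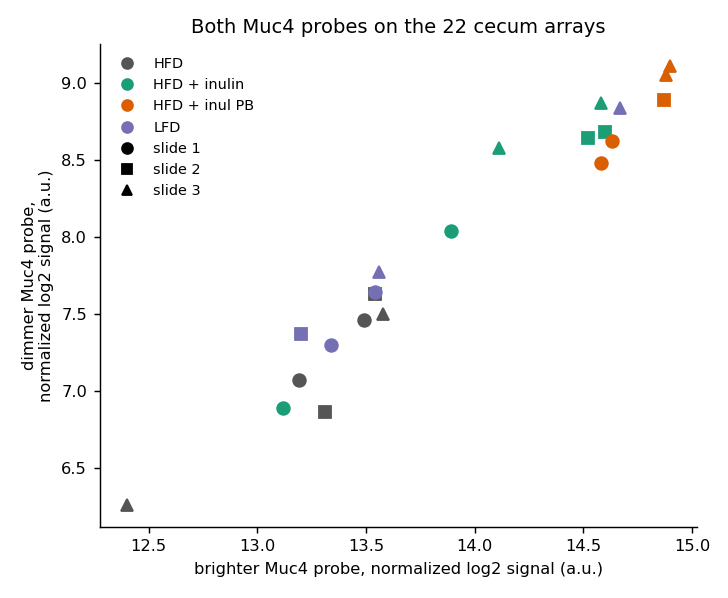
Normalized log2 signal of the brighter Muc4 probe (horizontal) against the dimmer Muc4 probe (vertical) on the 22 cecum arrays, colored by diet and with marker shapes for slides. The points follow 1 line (r = 0.978), with HFD replicate 5 at the low end and LFD replicate 4 among the HFD + inul PB arrays at the high end.

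Within slides, the Muc4 difference between HFD + inul PB and HFD was 1.27, 1.45 and 1.90 on slides 1, 2 and 3. For HFD + inulin it was 0.16 on slide 1 against 1.13 and 1.35 on slides 2 and 3, each from 2 arrays against 2, and the dimmer probe gave 0.20, 1.41 and 1.85. LFD against HFD was 0.10, -0.22 and 1.13. The HFD + inul PB difference was 1.27 or more on every slide, and the HFD + inulin difference was larger on slides 2 and 3 than on slide 1. With slide, row and column as blocks, a fit that was possible only for HFD + inulin against HFD, the difference was 0.88 and Muc4 was still called by the fold rule (adjusted P = 0.119).

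**Figure D3:**
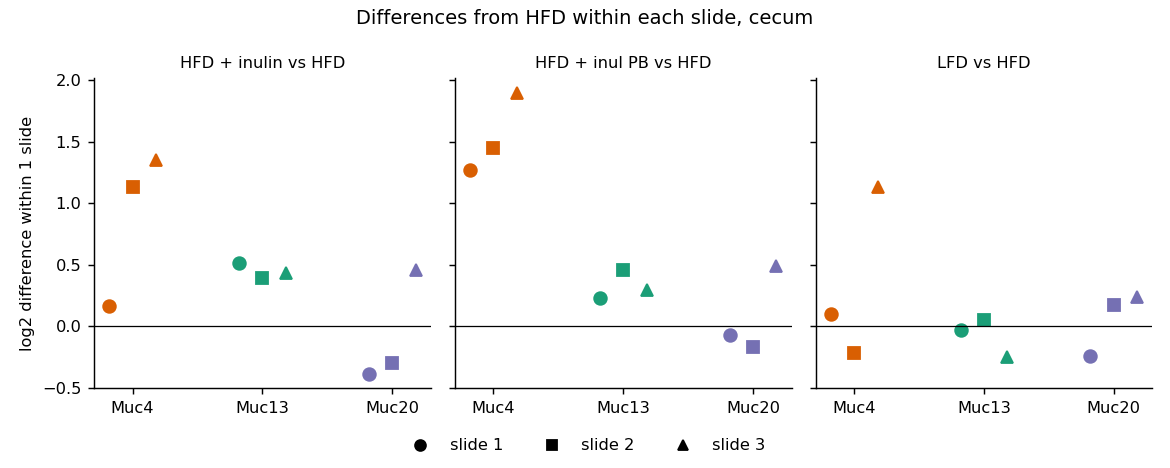
Log2 difference from HFD within each of the 3 slides for Muc4, Muc13 and Muc20 (brighter probes), in 1 panel per diet, each point a difference of means of 1 or 2 arrays against 2. Muc4 on HFD + inul PB lies between 1.27 and 1.90 on all slides, Muc13 is above 0 on all slides on both fiber diets, and Muc20 changes sign between slides on every diet.

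Muc13 differed by less than the fold of the rule. Its only probe (A_55_P1971840) was well above background on all 22 cecum arrays. The lowest, median and highest of the 6 HFD arrays were 16.86, 17.09 and 17.49, and those of the 6 HFD + inulin arrays were 17.38, 17.51 and 17.78. On HFD + inul PB the 5 arrays read 17.34, 17.11, 17.59, 17.32 and 17.62, and on LFD 16.72, 17.22, 17.17, 17.06 and 16.80. Every HFD + inulin array lay above every LFD array, and 1 HFD array, replicate 5, lay within the HFD + inulin range. That same HFD array had the lowest Muc4 signal of all, so the members did not move together on it.

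Against HFD, Muc13 was 1.36-fold higher on HFD + inulin (log2 difference 0.44, SE 0.12, 95% confidence interval 0.19 to 0.69), under the fold of the rule and not past adjustment (adjusted P = 0.0679). The exact permutation test gave P = 0.00649, and the within-slide differences were 0.51, 0.39 and 0.43. On HFD + inul PB it was 1.23-fold higher (0.29, 95% confidence interval 0.03 to 0.56, adjusted P = 0.184), with 0.23, 0.46 and 0.29 within slides. On LFD the difference was -0.11 (95% confidence interval -0.37 to 0.16, adjusted P = 0.895). The mean of the fiber diets exceeded LFD by 0.47 (SE 0.11, 95% confidence interval 0.24 to 0.71, adjusted P = 0.0438), so that Muc13 was the 1 member that passed adjustment there, as 0.478% of all probes did in that direction. It also exceeded HFD by 0.37 (SE 0.11, adjusted P = 0.039), where 3.65% of all probes passed in that direction. For that difference from HFD no other setting and no left-out array was tried. Over 13 other settings LIMMA's adjusted P for Muc13 against LFD ran from 0.0131 to 0.11, so that pass did not hold in all of them. HFD + inulin and LFD differed by 0.55 without overlap (exact permutation P = 0.00216, the smallest this test can give here). That pair of diets had no LIMMA comparison, and the share of all probes that separate these diets was not counted. HFD + inul PB and HFD + inulin did not differ beyond their spread (-0.15, 95% confidence interval -0.41 to 0.12), unlike the order in Muc4, where HFD + inul PB had the higher mean. Whether the diet responses of Muc4 and Muc13 differ from each other was not tested.

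Muc20 did not pass a test in any comparison of diets. Its brighter probe (A_51_P211506) was well above background on 21 of 22 cecum arrays and on all 24 liver arrays. The lowest, median and highest were 5.78, 6.09 and 6.48 on HFD and 5.54, 5.99 and 6.77 on HFD + inulin. The 5 HFD + inul PB arrays ran from 6.10 to 6.41 and the 5 LFD arrays from 5.94 to 6.47. All diets overlapped. The log2 differences from HFD were -0.07 with inulin (95% confidence interval -0.42 to 0.28), 0.10 with the esters (-0.27 to 0.47) and 0.00 for LFD (-0.37 to 0.36), so that none of these intervals reached the 1.5-fold threshold in either direction. Its direct neighbor Muc4 thus rose on HFD + inul PB while the Muc20 interval there stayed within that bound. The second Muc20 probe (A_55_P2164744) was not well above background on any of the 46 arrays, nor was the Muc1 probe (A_51_P467346), whose cecum means lay between 3.04 and 3.18. No fold is given for either, and a low signal from 1 probe does not show that the gene was silent.

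**Figure D4:**
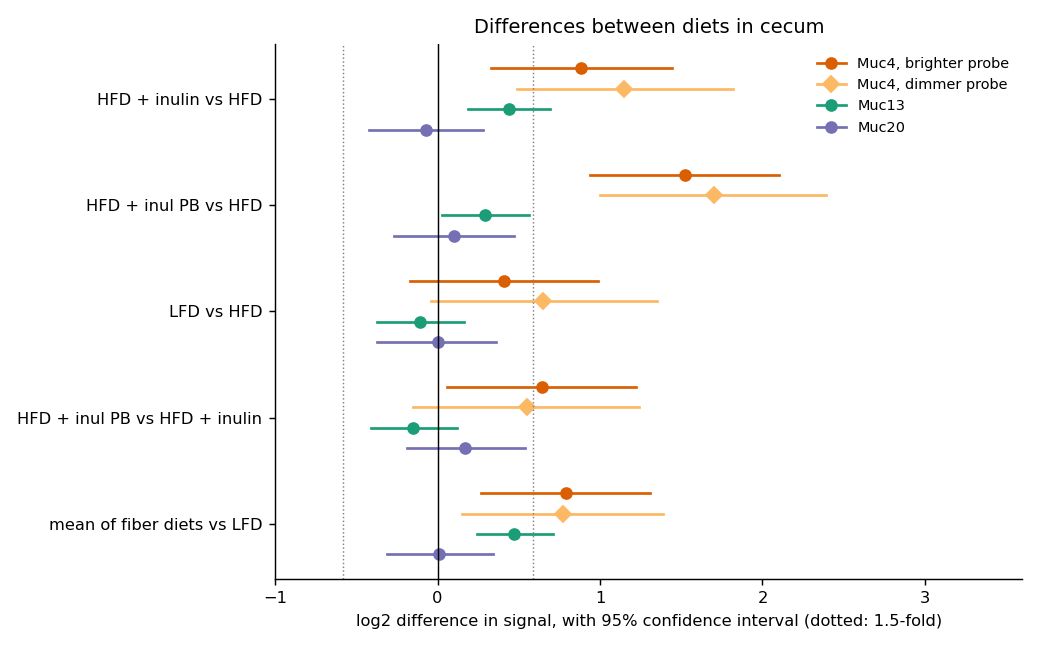
Log2 differences between diets in cecum, with 95% confidence intervals from LIMMA for both Muc4 probes, Muc13 and Muc20, with dotted lines at a 1.5-fold difference in either direction. Both Muc4 intervals lie wholly above the dotted line on HFD + inul PB against HFD, from 0.94 and from 1.00 upward, and every Muc20 interval spans 0.

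The protein-coding genes on either side, 3 each way, were taken by their order alone and gave no common shift. Of the 12, 11 had a named probe. Next to Muc4 and Muc20, Zdhhc19, Tfrc, Tnk2, Rubcn and Fyttd1 had 0 calls on either fiber diet. Next to Muc13, Slc12a8, a member of the cation-chloride cotransporter family, fell by 1.03 with inulin (adjusted P = 0.0104) and by 1.52 with the esters (adjusted P = 0.000229). Kalrn, a guanine nucleotide exchange factor, was called higher with the esters, by 0.71 (adjusted P = 0.00676), and the integrin subunit gene Itgb5 passed adjustment on both diets at 0.47 and 0.51, under the fold rule.

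The genes most like each member over the 22 cecum arrays, among 12337 or 12338 named genes well above background, were given by Pearson's r as a description, since arrays of a diet share that diet. For Muc4 these were the kinase gene Mast2 (r = 0.924), the dual-specificity phosphatase gene Dusp16 (r = 0.922) and Tusc2 (r = 0.92). With diet means removed, the values were 0.81, 0.811 and 0.797. For Muc13 they were Tep1 (r = 0.88), Septin8 (r = 0.869) and Duoxa2 (r = 0.866), a maturation factor of the dual oxidase of epithelial surfaces. For Muc20 they were Cdk9 (r = 0.758), Serpinb8 (r = 0.753) and Bpifc (r = 0.746). Between members r was 0.368 for Muc4 and Muc13 and -0.15 with diet means removed, 0.0556 for Muc4 and Muc20, and -0.0323 for Muc13 and Muc20.

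Lists of genes around membrane mucins were counted by the same rule on HFD + inul PB and HFD + inulin against HFD. Among all 20887 genes with a symbol, 1.39% were called higher and 2.31% lower with inulin, and 2.86% higher and 3.6% lower with the esters, and the median log2 differences were -0.01 and -0.02. After adjustment, 275 of these 20887 genes passed as higher and 256 as lower with inulin, and 1060 as higher and 1105 as lower with the esters. Of 10 other membrane-bound mucins and sialomucins, 4 had a named probe, and the transmembrane mucins Muc3, Muc12, Muc16, Muc17 and Muc21 are not analysed here. Emcn, the sialomucin of endothelium, fell by 0.84 on HFD + inul PB (adjusted P = 0.0326), the 1 gene called in that list. Of the secreted mucins, 3 of 5 had a named probe and Muc2, the main gel-forming mucin, fell by 0.93 with inulin (adjusted P = 0.0364) and by 1.28 with the esters (adjusted P = 0.00246). The lowest, median and highest Muc2 signals were 14.49, 14.82 and 15.93 on HFD and 13.58, 13.67 and 13.83 on HFD + inul PB, with no overlap. Muc4 and Muc2 thus moved in opposite directions on both fiber diets, though the Muc4 call on HFD + inulin did not pass adjustment. The Muc2 signal of 15.93 was that of HFD replicate 5, the array with the lowest Muc4 signal, so this array widened both differences.

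Enzymes that build mucin sugars moved in both directions. Of 14 genes that start O-glycans, 0 were called on HFD + inulin and 1, Galnt5, fell by 0.60 with the esters (adjusted P = 0.0828), a call by the fold rule, while the median of the list there was -0.19. Galnt12, of the same enzyme family, passed adjustment but not the fold rule, at 0.43 with inulin and 0.35 with the esters. Of 11 genes for cores and elongation, 0 were called on either diet, and the galactosyltransferase gene B4galt1 passed adjustment at 0.42 and 0.46. Of 18 measured genes for sialylation, fucosylation and sulfation, 2 fell on HFD + inulin, and 5 fell and 2 rose on HFD + inul PB. Fut4, a fucosyltransferase, fell by 0.68 and by 1.15 (adjusted P = 0.0191 and 0.000188), and Chst4, which adds sulfate to N-acetylglucosamine, fell by 0.67 and by 0.88 (adjusted P = 0.00912 and 0.000602). On HFD + inul PB the sialyltransferase gene St3gal3 fell by 0.59 (adjusted P = 0.0419). Fut2, the fucosyltransferase of mucosal surfaces, rose by 0.80 there (adjusted P = 0.0588), a call by the fold rule. Its HFD arrays ran from 7.68, on replicate 5, to 9.45 with a median of 9.35. Those of HFD + inul PB ran from 9.66 to 9.86 with a median of 9.82.

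**Figure D5:**
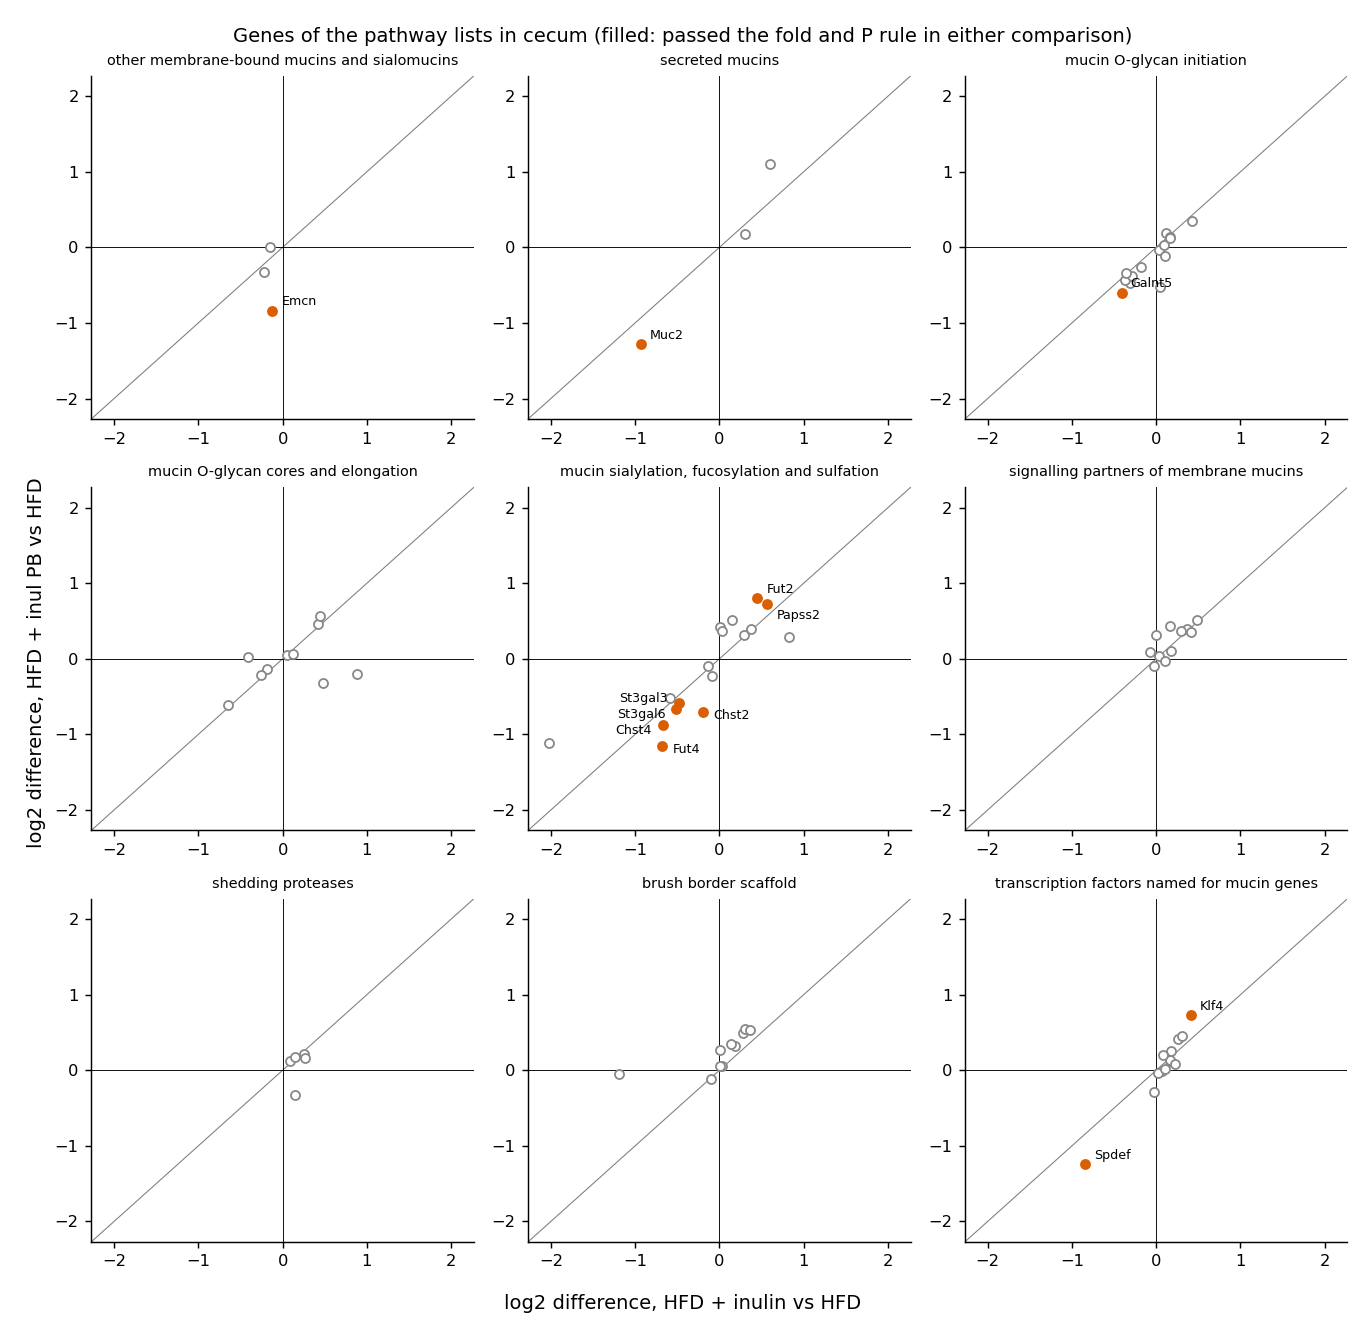
Log2 difference from HFD on HFD + inulin (horizontal) and on HFD + inul PB (vertical) in cecum for each gene of 9 pathway lists that was well above background on at least 1 cecum array, filled and named where the gene was called on either diet, with the diagonal of equal differences. Both comparisons share the HFD arrays; Muc2, Fut4, Chst4 and Spdef lie low on both, and no gene of the signaling, protease or brush border lists is filled.

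Of 11 signaling partners of membrane mucins, 0 were called by the fold rule. After adjustment 1 passed with inulin and 3 with the esters, named here after their values were seen. Erbb2, the receptor kinase that Muc4 binds, had a lowest, median and highest of 11.50, 11.57 and 11.95 for HFD and of 12.00, 12.14 and 12.34 for HFD + inulin. For HFD + inul PB they were 11.85, 12.28 and 12.45. All HFD + inulin arrays lay above all HFD arrays. Its log2 differences were 0.49 (SE 0.12, adjusted P = 0.0383) and 0.52 (SE 0.12, adjusted P = 0.0123). The adaptor gene Grb2 and the kinase gene Gsk3b passed on HFD + inul PB at 0.40 and 0.37 (adjusted P = 0.0253 and 0.0197). The list's median on HFD + inul PB was 0.32.

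Of 5 shedding proteases, 0 passed either rule on either diet. Of 10 brush border scaffold genes, 0 were called by the fold rule, and Cdhr2, a protocadherin that links microvilli, and Espn, an actin bundler, passed adjustment on HFD + inul PB at 0.49 and 0.54 (adjusted P = 0.00502 and 0.00923). Of 13 transcription factors named for mucin genes, Spdef, a factor of goblet cell maturation, fell by 0.84 with inulin (adjusted P = 0.0266) and by 1.24 with the esters (adjusted P = 0.00101). Klf4, a factor of differentiated epithelium, rose by 0.73 with the esters (adjusted P = 0.00757), where its 5 arrays, from 15.05 to 15.41, lay above all HFD arrays, from 14.08 to 14.83. Cdx2, the intestinal caudal factor, passed adjustment at 0.42 under the fold rule.

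Markers of the cell types in the tissue also differed between the diets. Of 12 goblet cell markers, 5 fell on HFD + inulin, and 9 fell and Ang4 rose on HFD + inul PB. The summed signal of the list ran from 19.51 to 20.20 (log2) for HFD and from 19.27 to 19.68 for LFD. It ran from 18.95 to 19.44 with inulin and from 18.92 to 19.17 with the esters. Of 10 measured absorptive colonocyte markers, Slc26a3 and Car4 rose on both fiber diets and Slc9a3, well above background on 2 arrays, was called lower on HFD + inulin. Guca2b, well above background on all 22 arrays, was lower by 0.97 with inulin and by 0.70 with the esters, without a call (adjusted P = 0.2 and 0.335). On LFD 1 marker of the list was called higher. That list summed to 19.45 to 19.91 for HFD, 19.79 to 20.02 for LFD, 19.95 to 20.20 with inulin and 20.01 to 20.18 with the esters, so both fiber diets lay above HFD. Of 11 genes of epithelial stem cells and proliferation, 0 were called with inulin and 3 fell with the esters (Lgr5, Top2a and Mcm5), where the median of the list was -0.49 and its sum ran from 14.31 to 14.60, below all HFD arrays at 14.71 to 15.10. Of 10 markers of all epithelium, 0 were called on either fiber diet and the summed signal overlapped, from 19.20 to 19.62 on HFD and 19.16 to 19.32 on HFD + inul PB. Adipocyte markers fell in 5 of 7 on HFD + inul PB, with a sum of 14.01 to 17.50 on HFD and 12.50 to 14.53 on that diet. Immune markers were also called lower there, 3 of 7 for T cells (Cd8a, Gzma and Gzmb) and 2 of 6 for macrophages (Lyz2 and C1qa). On LFD, 2 T cell markers were called lower, and 1 on HFD + inulin. The T cell sum ran from 12.87 to 13.24 on HFD + inul PB and from 12.96 to 13.29 on LFD. Both lay below all HFD arrays at 13.31 to 14.68. The macrophage sum ran from 12.50 to 12.96 on HFD + inul PB, from 12.51 to 13.26 on LFD and from 12.89 to 13.36 on HFD. In the lists for enteroendocrine cells, mesothelium, tuft cells, smooth muscle and hepatocytes, at most 1 gene was called in each direction on a fiber diet. The marker genes were named after their values were seen. The part of these marker differences in the Muc4 and Muc13 results was not tested, and in such bulk tissue more cells of a type and more RNA per cell cannot be told apart.

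In liver, 0 members were called by either rule in the mean of the fiber diets against HFD, where the fold rule called 0.311% of all probes, adjustment 0, and an unadjusted P under 0.05 held for 3.85%. Muc4 was not well above background on any of 24 liver arrays with either probe. The cecum signal of its brighter probe on HFD, 12.97 when both tissues were normalized together, was at least 224-fold higher than the bound for liver of 5.16. That of its dimmer probe, 6.95, was at least 3.44-fold higher, so the size of this bound depends on the brightness of the probe. Muc13 was well above background on 16 of 24 liver arrays and on 3 of the 6 HFD liver arrays, and by the same bound its cecum signal on HFD was at least 2720-fold higher. Muc20 was measured well above background in both tissues. With both tissues normalized together its HFD signal was lower in cecum than in liver, by a log2 difference of -0.76 (adjusted P = 0.000351). With each tissue normalized on its own, the HFD means were 6.12 in cecum and 6.44 in liver, so the size depends on the normalization. Other settings were not tried for this difference.

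The mean response to the fiber diets was compared between tissues in 1 fit of 46 arrays for Muc13 and Muc20. A response of Muc4 could not be measured in liver at its dim signal there, so no comparison is given for it. The cecum response minus that of liver was 0.41 for Muc13 (SE 0.28, adjusted P = 0.565), with 8 of its 24 liver arrays not well above background, and 0.03 for Muc20 (SE 0.22, adjusted P = 0.978). In that fit LIMMA called 0 of these members by either rule, and neither had an unadjusted P under 0.05. Of all probes, 1.39% were called higher by the fold rule and 2.1% passed adjustment in either direction. Over 7 other settings the Muc13 difference ran from 0.34 to 0.45. LIMMA's unadjusted P for it ran from 0.00912 to 0.155 there and its adjusted P from 0.148 to 0.576, so the unadjusted P depended on the setting.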

How the data were processed

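RNA of 22 cecum and 24 liver samples was measured on one-color Agilent mouse arrays. The authors deposited scanner output that gives the linear intensity of every spot, already background-subtracted, and a log2 table of values that they had normalized by cyclic loess. Groups and replicate numbers came from the sample labels. Here control and outlier spots were left out, the log2 of the processed signal was normalized within each tissue by cyclic loess (span 0.7), and spots of a probe were averaged. LIMMA (limma 3.58.1, R 4.3.3, with the data.table package, version 1.17.8) fitted the 4 diets of a tissue together, with the script tested on simulated data. Single probes also had two-sided exact permutation tests of means over arrays. The number of arrays limits the precision, and the study's methods describe mice acclimatized to single housing. Symbols came from RefSeq transcripts of GRCm38.p6. No column of the deposited table was left unused, and its values served as an alternative. The members, gene lists and tests were chosen with earlier results of these data known. Named genes were the members, up to 4 called genes of smallest P per list on HFD + inul PB, and the 3 most alike per member, with exceptions stated. Alternatives covered normalization, background, outlier spots, dim probes, blocks, probe choice, the samples fitted and left-out arrays. Protein and probe sequences are not used here, and 1 list of cell type markers is not reported here.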

Additional observations from a re-analysis of the deposited data

Results flagged for a closer look

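In 3 of the 16 groups of a member gene and a diet in cecum, 1 array stood apart from the others by Dixon's criterion, which chance meets in about 1 of 20 groups. Muc4 read 12.40 on HFD replicate 5, against 13.19 for the nearest HFD array, and the dimmer Muc4 probe read 6.26 on that array, its lowest as well. Muc4 read 14.67 on LFD replicate 4, against 13.56 for the nearest LFD array, and the dimmer probe read 8.84. Muc1 read 3.47 on LFD replicate 2, against 3.07 for the nearest, with a probe that no array measured well above background.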

How the results depend on the processing

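The counts of members called, out of Muc4, Muc13 and Muc20, kept their value in every setting tried other than left-out arrays, except that HFD + inul PB against HFD + inulin rose from 0 to 1 when HFD replicate 5 and LFD replicate 4 were both left out (Muc4, adjusted P = 0.50), a setting chosen after seeing the data. Leaving out 1 array at a time, the count ran from 0 to 1 for HFD + inulin against HFD and for the fiber diets against LFD, held at 1 for HFD + inul PB against HFD, and held at 0 for the tissue difference, counted over Muc13 and Muc20. The Muc4 difference on HFD + inul PB ran from 1.35 to 1.59 over those left-out arrays and from 1.35 to 1.61 over 14 other settings, and on HFD + inulin from 0.71 to 1.08 and from 0.71 to 1.02. The counts are by the fold rule, and passes after adjustment depended on the setting. Over 15 settings of HFD + inulin against HFD, LIMMA's adjusted P ran from 0.0464 to 0.26 for Muc4 and from 0.0319 to 0.188 for Muc13.

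Where signs turned, the values after the turn lay near 0. Muc4 on LFD against HFD, 0.41 in the main fit, was -0.01 with both arrays left out, and 0.16 to 0.53 with 1 left out. Muc20 on LFD against HFD was 0.05 with quantile normalization, 0.01 with cyclic loess over all pairs, 0.07 with normexp, 0.09 without background correction and with the authors' values, and 0.01 with slide or scan day as a block. On HFD + inulin it was 0.03 with normexp, without background correction and with the authors' values. For the fiber diets against LFD it was -0.04 with loess over all pairs. With 1 array left out Muc20 ran from -0.09 to 0.07 on LFD, from -0.22 to 0.03 on HFD + inulin, from -0.06 to 0.10 for the fiber diets against LFD and from -0.06 to 0.13 between tissues.

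The labels give the diets the same replicate numbers but do not say whether these pair the arrays. Deviations from the diet mean correlated over 0.1 in 11 of 31 same-numbered pairs and in 16 of 150 other pairs (medians 0.0578 and -0.0199). Same-numbered arrays were thus somewhat more alike, and pairs on 1 slide had a median of 0.0478 against -0.0273 across slides. Except for replicate 4, same-numbered cecum arrays shared a slide, so likeness by number and likeness by slide were not told apart. The main fit held neither as a block. With the replicate block, Muc4 differed by 0.88 on HFD + inulin and by 1.6 on HFD + inul PB, and the counts of calls were unchanged. Slide, row and column as blocks could not be fitted for HFD + inul PB or LFD. Probe brightness limits Muc1, 1 probe of Muc20 and Muc4 in liver to bounds.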
